A study of Mus musculus with 9 samples.

Results

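Granule cells and GABAergic interneurons of the mouse olfactory bulb were followed here through 7 genes: Gad1, Gad2, Slc32a1, Synpr, Calb1, Calb2 and Pvalb. They were picked by symbol, although earlier results of these data were known when they were chosen. The levels of 6 of the 7 were analysed here, among 27497 rows of the table. Of these, 5 were among the 12780 genes tested, since Calb1 averaged below 1 RPKM, the minimum for a test. RPKM is the number of reads per kilobase of transcript, scaled to the mapped reads of each library. The level of Slc32a1 was not analysed here.

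RNA of whole olfactory bulbs was sequenced from 9 adult C57/BL6 mice, at least 6 to 8 weeks old, with 3 mice in each of 3 groups. The clean air group was kept in carbon-filtered air. The 30 min group was taken directly after 30 min with a mixture of odorants. The 120 min group received the same 30 min of odorants, then 90 min of clean air. All mice carried the same strain background, and no allele, transgene or drug was named for any group. Because bulbs were sequenced whole, fewer cells of a type and less RNA per cell cannot be told apart.

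Most neurons of the olfactory bulb are inhibitory. Granule cells lie deep in the bulb, have no axon, and release GABA from their dendrites onto mitral and tufted cells. Periglomerular cells surround the glomeruli at the surface, and their classes are told apart in part by calretinin, calbindin and tyrosine hydroxylase. Many of both kinds are born after birth and join the bulb throughout life. GABA is made from glutamate by 2 glutamate decarboxylases, GAD67 (Gad1) and GAD65 (Gad2), and is loaded into vesicles by the transporter VGAT (Slc32a1). Synaptoporin (Synpr) is a synaptic vesicle membrane protein. Calretinin (Calb2), calbindin (Calb1) and parvalbumin (Pvalb) are EF-hand proteins that bind calcium, and each marks some interneurons.

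None of the 5 tested genes passed the test in any comparison. In limma with Benjamini-Hochberg adjustment over all tested genes, 0 of 5 were called at 30 min against clean air, where 0.141% of all tested genes were called. The count was also 0 of 5 at 120 min against clean air (0.0861% of all tested genes) and at 120 min against 30 min (0.0782%). A moderated F test over the 3 groups likewise called 0 of 5, beside 0.164% of all. At an unadjusted p under 0.05 the count was again 0 of 5 each time, beside 5.92%, 9.57% and 3.36% of all tested genes. The groups overlapped for all 5 genes in all 3 comparisons, whereas they were apart for 11.4%, 13.1% and 10.6% of tested genes. With shares this small, 0 of 5 is near the background.

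The same libraries held a response in activity-induced genes, which served as a check of the exposure. All 7 genes of that panel rose at 30 min, with log2 differences of 4.53 for Fos, 3.25 for Egr1, 3.57 for Arc and 3.04 for Npas4. At 120 min 1 of the 7, Fosb, was called higher than in clean air (log2 difference 2.48, adjusted p = 0.0112), and the panel's median was 0.81, with 0.07 for Junb and -0.19 for Npas4. From 30 to 120 min all 7 had a negative difference, with a median of -2.61, and 5 of the 7 were called lower. At 30 min the upper ends of the intervals of the 5 interneuron genes, at most 0.73, lay below the smallest panel difference of 2.68. The widest 95% interval, that of Pvalb, reached 0.69 on the log2 scale to each side of its estimate.

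**Figure D1:**
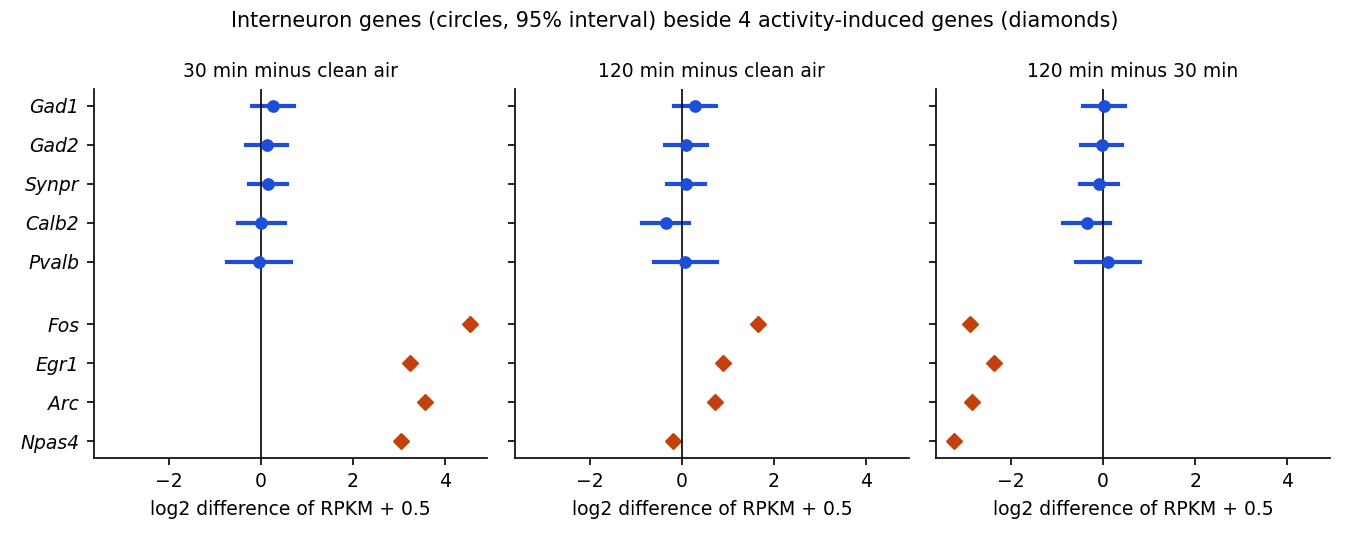
Differences between group means on the log2(RPKM + 0.5) scale (x axis) for 5 interneuron genes (circles, with the 95% interval of the limma fit) and 4 activity-induced genes (diamonds, no interval drawn), in 3 comparisons of 3 mice with 3 mice. Every interval of an interneuron gene crosses 0, while the 4 activity genes lie between 3.04 and 4.53 at 30 min.

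Gad1, Gad2, Slc32a1, Synpr and Pvalb, 5 of the 7 genes, had entries in the RefSeq promoter set (GRCm38.p6), with 7 start sites in all. The 250 bases before each start were searched on both strands for 7 short motifs, among them those of factors whose genes belong to the panel that rose at 30 min. These were AP-1 (TGANTCA), the cAMP response element (TGACGTCA) and its shorter form (TGACG), EGR (GCGNGGGCG), NR4A (AAAGGTCA), the GC box (GGGCGG) and the TATA box (TATAAA). The full response element contains the shorter form, so those matches can overlap, as can those of the EGR motif and the GC box. Matches were found before starts of Gad1, Gad2 and Synpr, and are shown with the matching letters in capitals within 29 bases. No motif was found in the windows of Slc32a1 and Pvalb or in that of the other Synpr start. The stretches are printed on the plus strand, which is the strand of these genes, and in all 5 the motif reads on the opposite strand, so that the capitals are its reverse complement.
Gad1, TATA box, chr2:70561977-70562005, plus strand: cgtgagctggaTTTATAatcgccctacaa
Gad1, GC box, chr2:70562100-70562128, plus strand: gcgggtccccgcctccccactCCGCCCcc
Gad2, shorter form of the cAMP response element, chr2:22622282-22622310, plus strand: ccatttcccttcCGTCActctctcatctc
Synpr, EGR, chr14:13284603-13284631, plus strand: gcagattgcgCGCCCGCGCgcaggatctg
Synpr, GC box, chr14:13284751-13284779, plus strand: cctagcccactctgccCCGCCCacccctc
The TATA letters of Gad1 began 141 bases before the RefSeq start, and its GC box 8 bases before it. The letters of Gad2 began 33 bases, the EGR letters of Synpr 167 bases and its GC box 13 bases before the start. Of 32841 promoter windows of this length, 12.37% held the TATA letters, 32.75% the GC box, 17.77% the shorter response element and 4.7% the EGR letters. The AP-1 letters, in 6.75% of all windows, were in none of the 7. The match of Gad2, the GC box of Gad1 and the EGR letters of Synpr lie wholly within exons of GENCODE M21 transcripts, whereas the TATA letters of Gad1 and the GC box of Synpr lie in none. All 5 matches are described from letters alone.

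Gad1 encodes the decarboxylase that makes most of the GABA in the brain. In clean air its level was 469.7, 359.9 and 279.8 RPKM in mice 1, 2 and 3. At 30 min the mice had 457.6, 420.3 and 434.2 RPKM, and at 120 min 521.5, 410.2 and 401.7 RPKM. The 3 clean air mice were spread widely, and the highest of them lay above every 30 min mouse. Group means were 369.8 ± 95.3 RPKM in clean air, 437 ± 18.8 at 30 min and 444.5 ± 66.8 at 120 min (SD, n = 3). The 30 min mean was 1.21-fold that of clean air in the fit, with a 95% interval from 0.881 to 1.66 and an adjusted p of 0.844. At 120 min the ratio to clean air was 1.22, from 0.889 to 1.67 (adjusted p = 0.716). The 120 min and 30 min groups stood at a ratio of 1.01, from 0.736 to 1.39 (adjusted p = 0.999). Both differences from clean air depended on single control mice. Without clean air mouse 1 the log2 difference at 30 min was 0.46 instead of 0.27 (unadjusted p = 0.0402, adjusted p = 0.477) and that at 120 min 0.475 instead of 0.29 (unadjusted p = 0.0357, adjusted p = 0.355). Without clean air mouse 3 they were 0.09 and 0.10.

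Gad2, the decarboxylase that is bound to synaptic vesicles, was measured at 50.8, 57.5 and 37.9 RPKM in the clean air mice. It stood at 49.4, 65.9 and 44.2 RPKM at 30 min, and at 52.0, 57.5 and 45.1 RPKM at 120 min. Mouse 2 was highest and mouse 3 lowest in each group, so the spread within groups was larger than the distance between them. Means were 48.7 ± 9.94, 53.2 ± 11.3 and 51.5 ± 6.20 RPKM (SD, n = 3). The fitted ratio to clean air was 1.09 at 30 min, from 0.798 to 1.49 (adjusted p = 0.918), and 1.07 at 120 min, from 0.781 to 1.46 (adjusted p = 0.921). Between the odor groups the log2 difference was -0.03 (adjusted p = 0.999).

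Gad1 exceeded Gad2 in all 9 libraries. The ratio of the 2 levels in RPKM within a library averaged 7.63 ± 1.51 in clean air, 8.49 ± 1.85 at 30 min and 8.69 ± 1.46 at 120 min (SD, n = 3). The values of the groups overlapped, from 6.26 to 9.25 in clean air, 6.38 to 9.82 at 30 min and 7.14 to 10.03 at 120 min. In each group the lowest ratio belonged to mouse 2.

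Synpr, the vesicle protein found at granule cell synapses, had 403.3, 309.9 and 249.4 RPKM in clean air. The 30 min mice had 364.8, 365.0 and 329.3 RPKM, and the 120 min mice 327.8, 339.5 and 331.1 RPKM. Again the clean air mice covered the widest range, with 1 above and 2 below every mouse of both odor groups. Means were 320.9 ± 77.6, 353 ± 20.5 and 332.8 ± 6.01 RPKM (SD, n = 3). The fitted ratio to clean air was 1.12 at 30 min, from 0.843 to 1.49 (adjusted p = 0.89), and 1.057 at 120 min, from 0.795 to 1.41 (adjusted p = 0.928). From 30 to 120 min the log2 difference was -0.08 (adjusted p = 0.999).

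Synpr stayed close to Gad1 within a library. In clean air the ratio of Synpr to Gad1 was 0.859, 0.861 and 0.891 in mice 1, 2 and 3, although Gad1 varied 1.68-fold and Synpr 1.62-fold among them. At 30 min the ratios were 0.797, 0.868 and 0.759, and at 120 min 0.629, 0.828 and 0.824. The means were 0.870 ± 0.0182, 0.808 ± 0.0558 and 0.760 ± 0.114 (SD, n = 3). The 120 min ratios lay below all clean air ratios, with mouse 1 the furthest at 0.629, but these ratios were looked at with no test. Among the levels of single tested genes, 13.1% had these groups apart.

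Clean air mouse 3 was low for Gad1, Gad2 and Synpr together. On the log2 scale it lay at -0.56, -0.41 and -0.42 from the 9-library means of the 3 genes, while the median of all tested genes was at -0.10 in that library. Calb2 in the same library lay at 0.33. Without this mouse the 30 min differences of Gad2 and Synpr from clean air were -0.043 and -0.004 instead of 0.125 and 0.16, and those at 120 min -0.075 and -0.087 instead of 0.09 and 0.08. The sign of the Gad2 and Synpr differences from clean air thus depended on 1 control library, and that of Gad2 at 30 min also on mouse 2 of the 30 min group (-0.039 without it).

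**Figure D2:**
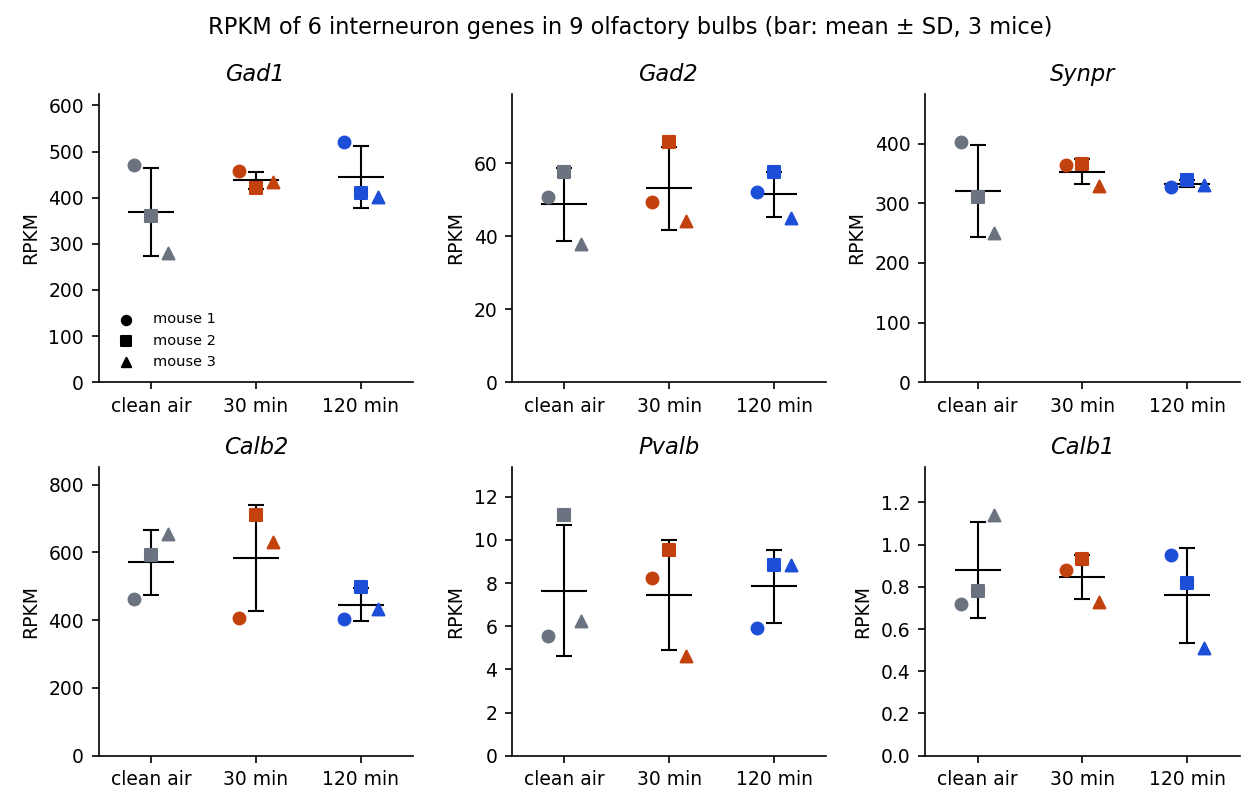
RPKM (y axis, from 0, with its own scale for each gene) of 6 interneuron genes in 3 groups of 3 mice (x axis). Each symbol is 1 mouse, and the bars give the group mean and SD. For Gad1 and Synpr the clean air mice cover the widest range, from 279.8 to 469.7 and from 249.4 to 403.3 RPKM, and for every gene the groups overlap.

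Calb2, which marks many granule and periglomerular cells, had the highest mean level of the 6 measured genes. In the clean air mice its level was 464.0, 592.3 and 655.0 RPKM. The 30 min mice had 407.4, 710.4 and 632.4 RPKM. At 120 min it was 404.5, 499.4 and 432.7 RPKM. The 120 min mice sat at the low end, but 2 of them lay below the lowest clean air mouse and 1 did not. Mouse 1 was the lowest in all 3 groups. Means were 570.4 ± 97.4, 583 ± 157 and 445.5 ± 48.8 RPKM (SD, n = 3). At 30 min the fitted ratio to clean air was 1.01, from 0.705 to 1.43 (adjusted p = 0.995). At 120 min it was 0.786, from 0.551 to 1.12 (adjusted p = 0.684), and against the 30 min group 0.782, from 0.548 to 1.12 (adjusted p = 0.999). Those intervals hold both no difference and ratios as low as 0.548. Without the 30 min mouse 1, the log2 difference from 30 to 120 min was -0.59 instead of -0.36 (unadjusted p = 0.0219, adjusted p = 0.998).

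The ratio of Calb2 to Gad1 was 0.988, 1.65 and 2.34 in the clean air mice, 0.890, 1.69 and 1.46 at 30 min, and 0.776, 1.22 and 1.08 at 120 min. Group means were 1.66 ± 0.677, 1.35 ± 0.411 and 1.02 ± 0.226 (SD, n = 3), with overlap between all groups. Mouse 1 was the only one under 1 in each group.

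**Figure D3:**
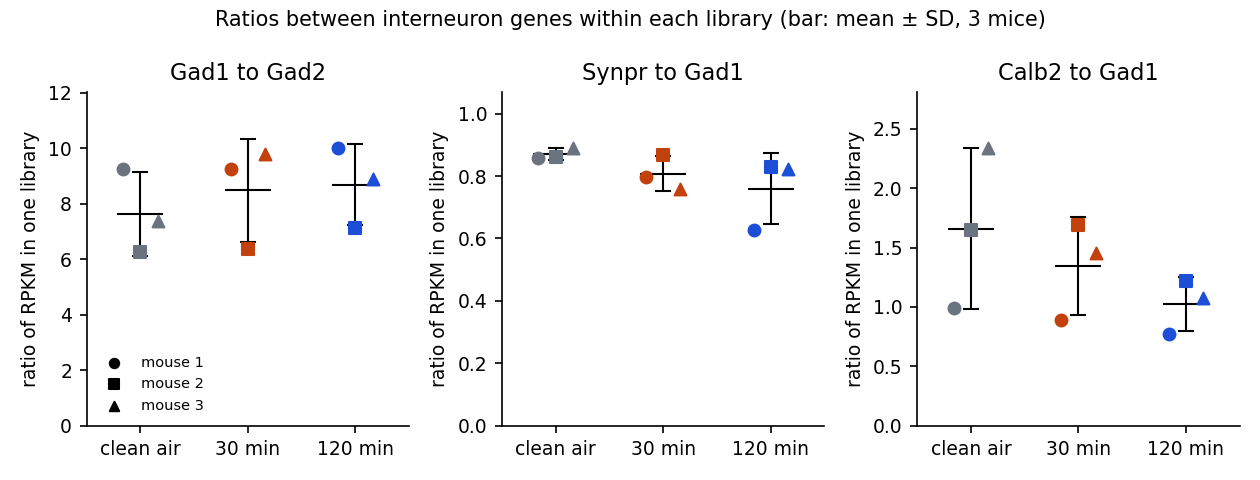
Ratio of 2 genes' RPKM within the same library (y axis, from 0) in 3 groups of 3 mice (x axis), for Gad1 to Gad2, Synpr to Gad1 and Calb2 to Gad1. Symbols are mice and bars are the mean and SD. Synpr to Gad1 runs from 0.859 to 0.891 in clean air and from 0.629 to 0.828 at 120 min, and Calb2 to Gad1 is lowest in mouse 1 of each group.

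Pvalb marks a small set of interneurons of the external plexiform layer. The clean air mice had 5.55, 11.2 and 6.25 RPKM, the 30 min mice 8.25, 9.52 and 4.60, and the 120 min mice 5.91, 8.84 and 8.82. Its highest and lowest mice stood 2.01-fold apart in clean air and 2.07-fold at 30 min. Means were 7.65 ± 3.05, 7.46 ± 2.55 and 7.86 ± 1.69 RPKM (SD, n = 3). The fitted ratio to clean air was 0.98 at 30 min, from 0.606 to 1.58 (adjusted p = 0.984), and 1.055 at 120 min, from 0.653 to 1.70 (adjusted p = 0.965). The residual SD of Pvalb, 0.45 on the log2 scale, was larger than that of 84.08% of tested genes, whose median was 0.28. Those of Gad1, Gad2, Synpr and Calb2 were 0.25, 0.26, 0.21 and 0.30.

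Calb1 marks a class of periglomerular cells, and its level lay under the minimum of 1 RPKM for a test. The clean air mice had 0.720, 0.780 and 1.14 RPKM, the 30 min mice 0.880, 0.930 and 0.730, and the 120 min mice 0.950, 0.820 and 0.510. At the depths recovered from the values, 7.15 to 29.9 M reads per library (M, mega), these levels stand for 3.65 to 34.1 reads per kilobase of transcript. A count of 3 reads corresponded to 0.1004 to 0.4194 RPKM for a transcript of 1 kb. Without the filter on low values, with 19528 genes tested, the log2 differences of Calb1 were -0.03 at 30 min and -0.14 at 120 min from clean air (adjusted p = 0.995 and 0.911). The table lists some rows of abundant genes at or near 0, among them 2 rows named Gapdh and those of the haemoglobin genes Hba-a1 and Hba-a2, so a low row need not mean a low transcript. The sources used here do not give how reads with several matches were counted, and the bearing of this on Calb1 was not tested.

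Set in order of their 9-library mean levels in RPKM, the genes were Calb2 (533), Gad1 (417), Synpr (336), Gad2 (51.1), Pvalb (7.65) and Calb1 (0.829). Calb2 and Gad1 were not separated: Calb2 was the higher in 6 of 9 libraries, and the ratio ran from 0.776 to 2.34. Gad1 exceeded Synpr in 9 of 9 libraries, by 1.12-fold to 1.59-fold, although their ranges over libraries overlapped. The 3 steps below, Synpr to Gad2, Gad2 to Pvalb and Pvalb to Calb1, were 6.56-fold, 6.68-fold and 9.24-fold in the means, with no overlap of ranges. Among all 27497 rows Calb2 ranked 48, Gad1 65 and Synpr 98 by mean level, while Gad2 ranked 1401, Pvalb 7367 and Calb1 13123. The values of the EF-hand genes Calb2 and Calb1 stood 426-fold to 866-fold apart within a library. Calb1 rested on 3.65 to 34.1 reads per kilobase, and a low row need not mean a low transcript. Its rank and these ratios thus describe the listed values only.

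By direction alone, 4 of 5 genes had a positive log2 difference at 30 min and 4 of 5 at 120 min from clean air, and 2 of 5 from 30 to 120 min. Centring or quantile normalization of the libraries turned Calb2 negative at 30 min (-0.07 and -0.03). Of all tested genes 61.82%, 53.87% and 43.74% were positive. The medians over the 5 genes were 0.125, 0.08 and -0.03, beside 0.08, 0.03 and -0.03 over all tested genes.

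Likeness of pattern was measured as the root mean square difference of the centred log2 values over the 9 libraries, among 8791 genes averaging 5 RPKM or more. Closest to Gad1 were AK148282 (0.07) and Btbd10 (0.07), and closest to Gad2 were Ap3b1 (0.07), a subunit of an adaptor complex in vesicle sorting, and Atxn10 (0.07). Rab22B and 1600002H07Rik, at 0.05 each, were closest to Synpr. The nearest to Calb2 were AK160359 (0.11) and Amacr (0.12), and to Pvalb 2310008M10Rik (0.12) and 1110008P14Rik (0.16). Within the 5 genes themselves, Gad1 and Synpr were the nearest pair, at 0.14, with Synpr at rank 206 of the candidates for Gad1 and Gad1 at rank 361 for Synpr. Gad2 and Synpr were at 0.19, and Gad1 and Gad2 at 0.25. Nearest to Pvalb among the 5 was Gad2, at 0.31 and rank 264, while Synpr was at 0.41, Calb2 at 0.46 and Gad1 at 0.49, beside a median of 0.46 over all candidates for Pvalb. Calb2 was at 0.36 from Gad2, 0.40 from Synpr and 0.48 from Gad1, beside a median of 0.40 over its candidates. These distances describe 9 libraries that differ in depth.

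The other genes of GABA handling were taken as 20 genes for breakdown, uptake and precursor supply, all of which were tested. None was called in any comparison by limma, and 3 of 20 had an unadjusted p under 0.05 at 30 min, 2 at 120 min and 0 between the odor groups, beside the same 5.92%, 9.57% and 3.36%. Their log2 differences from clean air were positive for 19 of 20 at 30 min and 18 of 20 at 120 min, beside 61.82% and 53.87% of all tested genes. Their medians were 0.24 and 0.25, beside 0.08 and 0.03. Glul, the glutamine synthetase of astrocytes, was the most abundant at 542 ± 85.6 RPKM in clean air, 619 ± 37.5 at 30 min and 571 ± 8.25 at 120 min (SD, n = 3). The GABA transporter GAT-3 (Slc6a11) had log2 differences of 0.34 at 30 min (adjusted p = 0.841) and 0.46 at 120 min (adjusted p = 0.599). Got1, a glutamate-forming aminotransferase, had 0.34 and 0.19 (adjusted p = 0.832 and 0.788). Over 8 astrocyte markers, some of which are also on the GABA list, the summed level was 1123 to 1661 RPKM in clean air, 1461 to 1672 at 30 min and 1365 to 1816 at 120 min. Its part in the GABA list was not tested.

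On the receiving side, 7 of 8 genes for chloride and glycine transporters and inhibitory scaffolds were tested and 0 were called, with 0 at an unadjusted p under 0.05 in limma. Their medians were 0.12 at 30 min and 0.13 at 120 min, beside 0.08 and 0.03 over all tested genes. Nlgn2, the neuroligin of inhibitory synapses, had log2 differences of -0.05 and 0.13, and the chloride exporter KCC2 (Slc12a5) 0.14 and 0.37. The glycine transporter Slc6a9 had 0.06 and 0.15 (adjusted p = 0.955 and 0.837).

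Transcription factors of forebrain interneurons were analysed for 17 of 20 symbols, with 16 rows tested and 0 called by limma (1 at an unadjusted p under 0.05 at each time against clean air, 0 between the odor groups). Signs were mixed, with 6 of 16 positive at 30 min and 8 of 16 at 120 min, beside 61.82% and 53.87% of all tested genes. Their medians were -0.02 and -0.02, beside 0.08 and 0.03 over all tested genes. The 4 most abundant were Meis2 at 189 RPKM over all libraries, Zic1 at 183, Dlx1 at 144 and Dlx5 at 71.7. Their log2 differences at 30 min were 0.21, -0.00039, -0.15 and -0.20.

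Of 6 further genes of granule cells 2 were analysed here, and neither was called or had an unadjusted p under 0.05 in limma. Gng4, a G protein subunit, stood at 207 ± 63.2, 231 ± 32.6 and 238 ± 16.9 RPKM, and Stxbp6, which binds the vesicle fusion machinery, at 23.4 ± 6.75, 28.7 ± 5.89 and 25.5 ± 3.09 RPKM (SD, n = 3). Markers of other interneuron classes numbered 16 tested genes, and 0 were called by limma (3, 3 and 1 of 16 at an unadjusted p under 0.05 in the 3 comparisons, beside 5.92%, 9.57% and 3.36% of all tested genes). Their medians were 0.21 at 30 min and 0.26 at 120 min, beside 0.08 and 0.03 over all tested genes. The peptide gene Cck had log2 differences of -0.26 and -0.20, tyrosine hydroxylase (Th) 0.26 and 0.30, and Npy 0.02 and -0.02. Reelin (Reln), which mitral cells also make, had 33.2 ± 12.6, 48.9 ± 7.42 and 58.9 ± 1.55 RPKM (SD, n = 3), a log2 difference of 0.90 at 120 min (adjusted p = 0.345).

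Relatives of the named proteins were described in the same way. Of 7 genes of the synaptophysin and synaptogyrin family 5 were tested, with 0 called and 0 at an unadjusted p under 0.05 in limma. Their medians at 30 and 120 min were 0.02 and 0.10, beside 0.08 and 0.03 over all tested genes. Syp, the most abundant, stood at 489 ± 15.5 RPKM in clean air, 519.7 ± 45.2 at 30 min and 489 ± 22.8 at 120 min (SD, n = 3). Syngr1, Syngr3 and Syngr2 had log2 differences at 120 min of 0.36, 0.12 and 0.10. Among 22 tested genes for other neuronal EF-hand proteins 0 were called and 0 had an unadjusted p under 0.05 in limma. They were positive for 19 of 22 at 30 min and 13 of 22 at 120 min, and negative for 17 of 22 from 30 to 120 min. Positive shares over all tested genes were 61.82%, 53.87% and 43.74% in these comparisons. The medians of the 22 genes were 0.15, 0.05 and -0.17, beside 0.08, 0.03 and -0.03 over all tested genes. The calmodulin genes Calm3 and Calm2 had log2 differences of 0.03 and 0.12 at 30 min and of -0.14 and -0.25 from 30 to 120 min. Hpcal4 had 0.40 and 0.26 in these comparisons (adjusted p = 0.845 and 0.999).

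**Figure D4:**
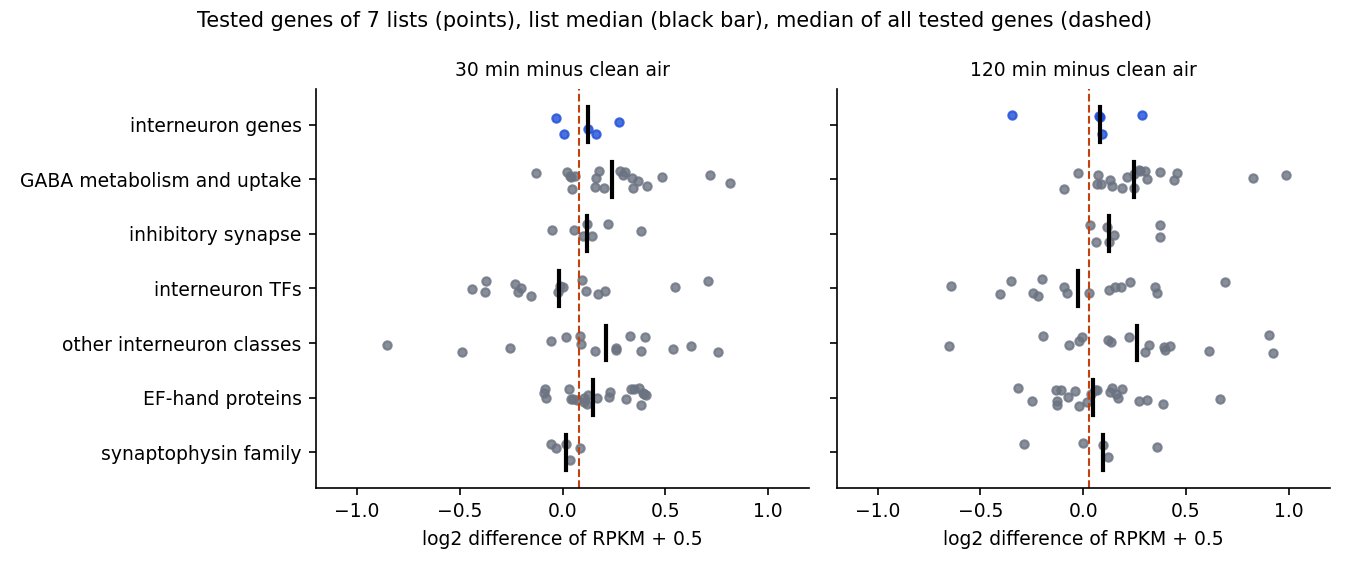
Log2 differences from clean air (x axis) of each tested gene (points, spread vertically for legibility) in 7 gene lists at 30 min and at 120 min, with the list median as a black bar and the median of all tested genes as a dashed line (0.08 and 0.03). The 5 interneuron genes (top) have medians of 0.125 and 0.08, and none of the genes shown was called.

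Other cell types of the bulb and of its surroundings were checked in all libraries. None of the 12 marker lists of these cells held a gene called by limma. At an unadjusted p under 0.05 in limma they held 10 of 71 tested rows at 30 min, 7 at 120 min and 2 between the odor groups. The shares over all tested genes were 5.92%, 9.57% and 3.36%. Slc17a7, Tbr1 and Sox10 are each on 2 of these lists and were counted in both. Marker sums for mitral and tufted cells ran from 1057 to 1472 RPKM over the 9 libraries, and for the dopaminergic periglomerular list from 170 to 277. Among single markers, Omp of olfactory sensory neurons averaged 97.2 RPKM, Eomes of mitral and tufted cells 67.3 and Th 194. Each was present in every library. Some other members of the same lists were low. Cnga2 and Rtp1 of olfactory sensory neurons averaged 0.406 and 0.482 RPKM. Slc18a2 of the dopaminergic list averaged 1.42 RPKM, and Slc17a6 of the mitral and tufted list 4.15. The sum of the red blood cell list was 42.9 to 162 RPKM in clean air, 175 to 210.0 at 30 min and 52.3 to 197 at 120 min, with 2 of its 5 rows at 0 in all libraries. Its part in the values above was not tested. Frontal cortex and anterior olfactory markers, of which Slc17a7 is shared with mitral cells, summed to 369 to 587 RPKM.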

How the data were processed

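Poly(A)+ RNA of whole olfactory bulbs of 9 mice was sequenced from paired ends, per the labels' protocols. Reads were aligned with Bowtie to mouse mm9, per the submitters' processing notes. The authors deposited RPKM values per gene, 1 column per mouse. The sources used here do not give the annotation, the counting rule, the use of strand or the aligner's settings.

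Values were tested as log2(RPKM + 0.5), a scale that understates the change of low genes. Genes averaging 1 RPKM or more entered 1 limma fit to all 9 libraries (limma 3.58.1, R 4.3.3) with group means, a mean-variance trend, Benjamini-Hochberg adjustment over 12780 genes and a threshold of 0.05. Intervals are 95% intervals from this fit. Each group held 3 separate mice. In simulated data for 30 min against clean air with 12780 genes, 2% of genes raised by a log2 of 0.5 were called. The share was 36% at 1, 98% at 2 and, for lowered genes, 50% at -1.

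Depth was recovered from the spacing of low RPKM values of RNAs under 200 bases, whose values came out as whole reads, within 0.05, for 86.15% to 93.04% of them when 34 bases were taken off each RNA's annotated length. With the full length the share was 12.41% to 18.34%, so depths and reads per kilobase rest on that offset. It ranged from 7.15 to 29.9 M reads (M, mega). The floors of 3 reads reflect counting only, whereas the 95% intervals come from the limma fit and rest on the spread between mice.

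The genes, the 21 other gene lists and the tests were chosen with earlier results of these data known. All 7 genes are named where they were analysed. From the other lists, called genes or up to 4 tested genes of highest mean RPKM are named, and for each of the 5 tested genes the 2 nearest in pattern. Some genes that this rule names are not reported here. Genes singled out beyond these, as examples, are Omp, Eomes, Slc17a7, Cnga2, Rtp1, Slc18a2, Slc17a6 and the rows listed near 0. Promoter windows came from RefSeq (GRCm38.p6) and were used for letters only. Alternatives changed the pseudocount, filter, scaling, trend, fitted groups, block or left out 1 mouse.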

Additional observations from a re-analysis of the deposited data

How the results depend on the processing

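Across 18 alternatives, 9 of them leaving out 1 mouse each, 0 of the 270 differences of the 5 tested genes were called by limma, and 4 had an unadjusted p under 0.05. Changes of the filter, the trend, the fitted groups or the block left the differences themselves unchanged. So did leaving out a mouse of the group outside the comparison. In those alternatives the sign could not turn. The sign turned in 22 of the 270, 19 of which left out a mouse. Among the others, Calb2 at 30 min was -0.072 with each library centred on its median and -0.032 after quantile normalization, and Gad2 from 30 to 120 min was 0.006 with centring. Leaving out 1 mouse at a time, the differences at 30 min ranged from 0.088 to 0.461 for Gad1, -0.043 to 0.253 for Gad2, -0.004 to 0.342 for Synpr, -0.153 to 0.247 for Calb2 and -0.225 to 0.262 for Pvalb. At 120 min they ranged from 0.102 to 0.475 for Gad1, -0.075 to 0.222 for Gad2, -0.087 to 0.259 for Synpr, -0.489 to -0.24 for Calb2 and -0.107 to 0.365 for Pvalb. From 30 to 120 min the ranges were -0.107 to 0.082 for Gad1, -0.152 to 0.133 for Gad2, -0.133 to -0.059 for Synpr, -0.594 to -0.194 for Calb2 and -0.186 to 0.301 for Pvalb.

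Over all genes, the 11 calls at 120 min against clean air became 7 with a filter at 5 RPKM and 2 with only the 2 groups compared in the fit. Leaving out 1 mouse gave 0 to 11 calls there, with 0 calls without clean air mouse 2 or 120 min mouse 3 (1092 and 855 genes at an unadjusted p under 0.05), 3 without 120 min mouse 1 or 2, and 6 without clean air mouse 1. The other comparisons gave 13 to 19 calls at 30 min (18 with all mice) and 7 to 10 from 30 to 120 min (10 with all mice). The cause was not tested.

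With the mouse number as a replicate block, 0 of the 5 genes were called by limma in any comparison, and over all genes 22, 11 and 10 were called at 30 min, at 120 min and between the odor groups. Under the block 1 of the 5 genes, Calb2 from 30 to 120 min, had an unadjusted p under 0.05 (0.0492, adjusted p = 0.746). At an unadjusted p under 0.05 in limma the block gave 1396, 1910 and 854 genes, beside 756, 1223 and 430 without it. The standard error of Gad2 at 30 min was 0.122 with the block and 0.204 without, and that of Calb2 0.155 and 0.232. Nothing states that the numbers pair the mice, so the main fit has no block. Yet 9 of 9 libraries correlated best with one of their own number, a shared part that the main fit ignores. Libraries of mouse 3 correlated by 0.081 to 0.147 over genes, those of mouse 1 by 0.223 to 0.319 and those of mouse 2 by 0.383 to 0.444. The mouse numbers are those of the sample titles. The descriptions carry other numbers, which the clean air mice and the odor groups do not all share. Calb1 rested on 3.65 to 34.1 reads per kilobase and Pvalb on 58.3 to 274, and which of depth and spread between mice limits them more was not tested.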

Other observations

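Levels of several of these genes followed the mouse number given in the labels across all 3 groups. Gad1 was highest in mouse 1 of each group, Gad2 and Pvalb in mouse 2, and Calb2 was lowest in mouse 1, as Gad2 was in mouse 3. For Pvalb at 120 min, mouse 2 at 8.84 RPKM and mouse 3 at 8.82 were nearly level. Of all 12780 tested genes, 28.4% had the same number highest in all 3 groups and 24.9% the same number lowest. The libraries of mouse 1 held 8.82 to 10.5 M reads (M, mega) and those of mouse 2 held 22.2 to 28.8 M, while those of mouse 3 held 29.9, 17.4 and 7.15 M in clean air, at 30 min and at 120 min. The part of depth in these levels was not tested.

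For Gad1, Synpr and Pvalb the spread among mice was widest in the clean air group. The coefficient of variation of Gad1 was 25.8% in clean air, 4.31% at 30 min and 15.03% at 120 min, that of Synpr 24.2%, 5.81% and 1.81%, and that of Pvalb 39.9%, 34.3% and 21.5%. For Gad2 it was 20.4%, 21.3% and 12.03%, and for Calb1 25.81%, 12.3% and 29.7%. For Calb2 the order was another, with 17.1%, 27.0% and 10.9%. These are values of 3 mice each, and the differences in spread were not tested.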
